A study of Homo sapiens with 9 samples.

Results

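The G1/S and DNA replication genes examined here are 43 of the 27421 genes in the deposited expression table, chosen by name and found in all 9 libraries. They comprise G1 cyclins and their kinases, E2F factors, origin licensing and firing factors, polymerases with the sliding clamp and its loader, Okazaki fragment enzymes, enzymes of nucleotide supply, and 3 genes of replication-coupled chromatin, histone mRNA and uracil repair. The libraries came from Huh7, an established human hepatocellular carcinoma line, with 3 libraries each of 2 knockdown arms of ZMAT2, named shzmat2-1 and shzmat2-2, and 3 libraries of the control, named huh7-control. ZMAT2 encodes a spliceosomal zinc finger protein, and the study asked if its part in splicing bears on the course of this cancer. The labels describe neither the constructs nor the time after knockdown. Separate cultures are not stated for the replicates of a group, so the p-values reflect the spread among these libraries, which may be technical. Values are FPKM, the fragments of a gene divided by transcript length and library depth, a level per length that allows genes to be compared and does not show isoforms.

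These genes form the program that takes a cell out of G1 and copies its genome. Cyclin D with CDK4, and cyclin E with CDK2, phosphorylate the retinoblastoma protein, which releases E2F factors to switch on much of the remaining list. ORC, CDC6 and CDT1 load the MCM2 to MCM7 helicase on origins in G1, the kinase of CDC7 and DBF4 and the factors CDC45, MCM10 and GINS activate it in S phase, and the polymerases then work with PCNA, which the RFC complex loads on DNA. Transcripts of many of these genes oscillate in the cycle and are widely read as a mark of proliferating cells, liver cancer included.

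Promoter sequence was examined because E2F sites are the feature through which many of these genes are known to be controlled together. The RefSeq promoter table (GRCh38.p14, 250 bases before to 50 after each start) held 48 promoters of 37 of the 43 members, and none of CCND1, CCNE2, CDK2, MCM4, MCM5 and GINS4. The letters TTTCCCGC, TTTCGCGC, TTTGCCGC or TTTGGCGC, on either strand, stood in 22 of the 48 promoters (45.8%), which belong to 21 genes, against 5.10% of 12260 promoters of the tested protein-coding genes. The letters CCAAT, on either strand, stood in 56.2% of the members' promoters and 35.4% of the 12260. TTTGAA or TTCGAA, the letters of the element of G2/M genes, stood in 8.33% and 12.0%. In 85 promoters of other genes of the G1/S and replication pathway, the E2F letters stood in 23.5%, CCAAT in 43.5% and the G2/M letters in 10.6%. Counted by gene, CCAAT stood in 54% of the members, 59% of the other pathway genes and 44% of the tested protein-coding genes. A match of letters is a description of sequence and not a bound site.

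Promoter stretches of 160 bases before the RefSeq start are printed for 7 members named in the results below. They read 5′ to 3′ on the gene's strand, with the E2F letters of either strand in capitals. The 7 were picked, all but CDK4 with the letters, and do not stand for the members that differed. FEN1, ORC6 and RFC2, which also feature below, had no E2F letters in their promoters and are not printed. E2F1 (chr20:33686386-33686545, minus strand) encodes an E2F factor itself and holds 2 runs. E2F2 (chr1:23531234-23531393, minus strand), CDT1 (chr16:88803629-88803788, plus strand), GINS2 (chr16:85688955-85689114, minus strand) and PCNA (chr20:5126623-5126782, minus strand) hold 1 run each in these bases. MCM6 (chr2:135876444-135876603, minus strand) holds 2 runs in which the letters of both strands overlap. CDK4 (chr12:57752311-57752470, minus strand), whose level varied widely between libraries, holds none and is shown for contrast.
E2F1: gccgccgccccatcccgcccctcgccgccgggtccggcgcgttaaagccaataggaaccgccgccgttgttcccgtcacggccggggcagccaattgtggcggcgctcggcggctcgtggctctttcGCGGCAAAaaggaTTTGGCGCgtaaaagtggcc
E2F2: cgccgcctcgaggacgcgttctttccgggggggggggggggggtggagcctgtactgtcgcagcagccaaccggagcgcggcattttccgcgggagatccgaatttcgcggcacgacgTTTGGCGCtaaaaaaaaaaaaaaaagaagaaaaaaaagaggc
CDT1: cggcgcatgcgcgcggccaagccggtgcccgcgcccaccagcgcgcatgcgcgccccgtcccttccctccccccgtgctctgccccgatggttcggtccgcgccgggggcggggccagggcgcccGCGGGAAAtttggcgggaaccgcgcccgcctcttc
MCM6: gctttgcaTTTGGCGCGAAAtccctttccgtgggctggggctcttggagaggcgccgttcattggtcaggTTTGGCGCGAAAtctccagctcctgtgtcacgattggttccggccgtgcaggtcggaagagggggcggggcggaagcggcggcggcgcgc
GINS2: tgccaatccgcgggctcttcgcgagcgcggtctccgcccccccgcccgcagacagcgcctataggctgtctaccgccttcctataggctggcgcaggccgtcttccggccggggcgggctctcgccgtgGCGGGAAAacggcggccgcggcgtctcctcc
PCNA: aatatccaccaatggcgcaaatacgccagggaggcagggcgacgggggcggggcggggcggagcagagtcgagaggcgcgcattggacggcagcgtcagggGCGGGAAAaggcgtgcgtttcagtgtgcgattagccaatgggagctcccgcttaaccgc
CDK4: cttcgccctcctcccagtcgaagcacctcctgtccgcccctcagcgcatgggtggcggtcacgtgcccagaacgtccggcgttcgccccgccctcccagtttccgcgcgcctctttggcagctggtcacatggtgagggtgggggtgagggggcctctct

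The knockdown and the libraries were checked before the members were compared. ZMAT2 had 15.2, 12.8 and 13.2 FPKM in shzmat2-1 and 22.1, 20.3 and 20.8 FPKM in shzmat2-2, against 37.5, 32.8 and 39.2 FPKM in the control, and every knockdown library lay below every control library (exact permutation test of 6 against 3 libraries, two-sided p = 0.0119, the smallest that 84 assignments can give). Depth was 18430000 to 23740000 fragments per library. The 13 genes of the mitochondrial genome took a share of all fragments, the mitochondrial share, of 8.25%, 16.4% and 7.70% in shzmat2-1 replicates 1, 2 and 3, 27.0%, 14.5% and 16.6% in shzmat2-2, and 7.86%, 43.2% and 8.28% in the control. Control replicate 2 stands apart, and no shzmat2-2 library is under 10%. All 10 liver and liver carcinoma markers, such as ALB and AFP, were above the detection filter, and their summed level was 4963 to 6057 FPKM in shzmat2-1, 4319 to 5053 FPKM in shzmat2-2 and 3403 to 6136 FPKM in the control. Of the markers of other cell types, 4 of 6 for fibroblasts, 4 of 5 for leukocytes and 2 of 3 for endothelium were under 1 FPKM in every library. None was at 0 throughout. The exceptions were COL1A2, PDGFRB and PECAM1, at most 2.31 FPKM, and CD14, at 2.47 to 8.74 FPKM. KDR, also listed for endothelium, was not among the deposited genes. In the deposited coordinates, of unstated genome build, 21 of the 43 members overlap another listed gene, 18 of them one on the opposite strand. The libraries kept strand, per the labels' protocols, but whether counting used it is not given, so reads of such pairs may be shared.

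The replication genes were expressed in every library, and their level followed the library more than the group. Their summed level was 1825, 1337 and 1810 FPKM in shzmat2-1, 1039, 1331 and 1372 FPKM in shzmat2-2, and 1594, 701 and 1592 FPKM in the control. The lowest sum is that of control replicate 2, and the 3 groups overlap. As a share of all FPKM outside the mitochondrial genome, the members made up 0.825%, 0.769% and 0.835% in shzmat2-1, 0.691%, 0.755% and 0.742% in shzmat2-2, and 0.773%, 0.603% and 0.764% in the control. On that scale shzmat2-1 replicate 2 lies between the control libraries and the other 2 shzmat2-1 libraries lie above all of them. In bulk samples, fewer cells in S phase and less RNA of these genes per cell cannot be told apart.

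**Figure D1:**
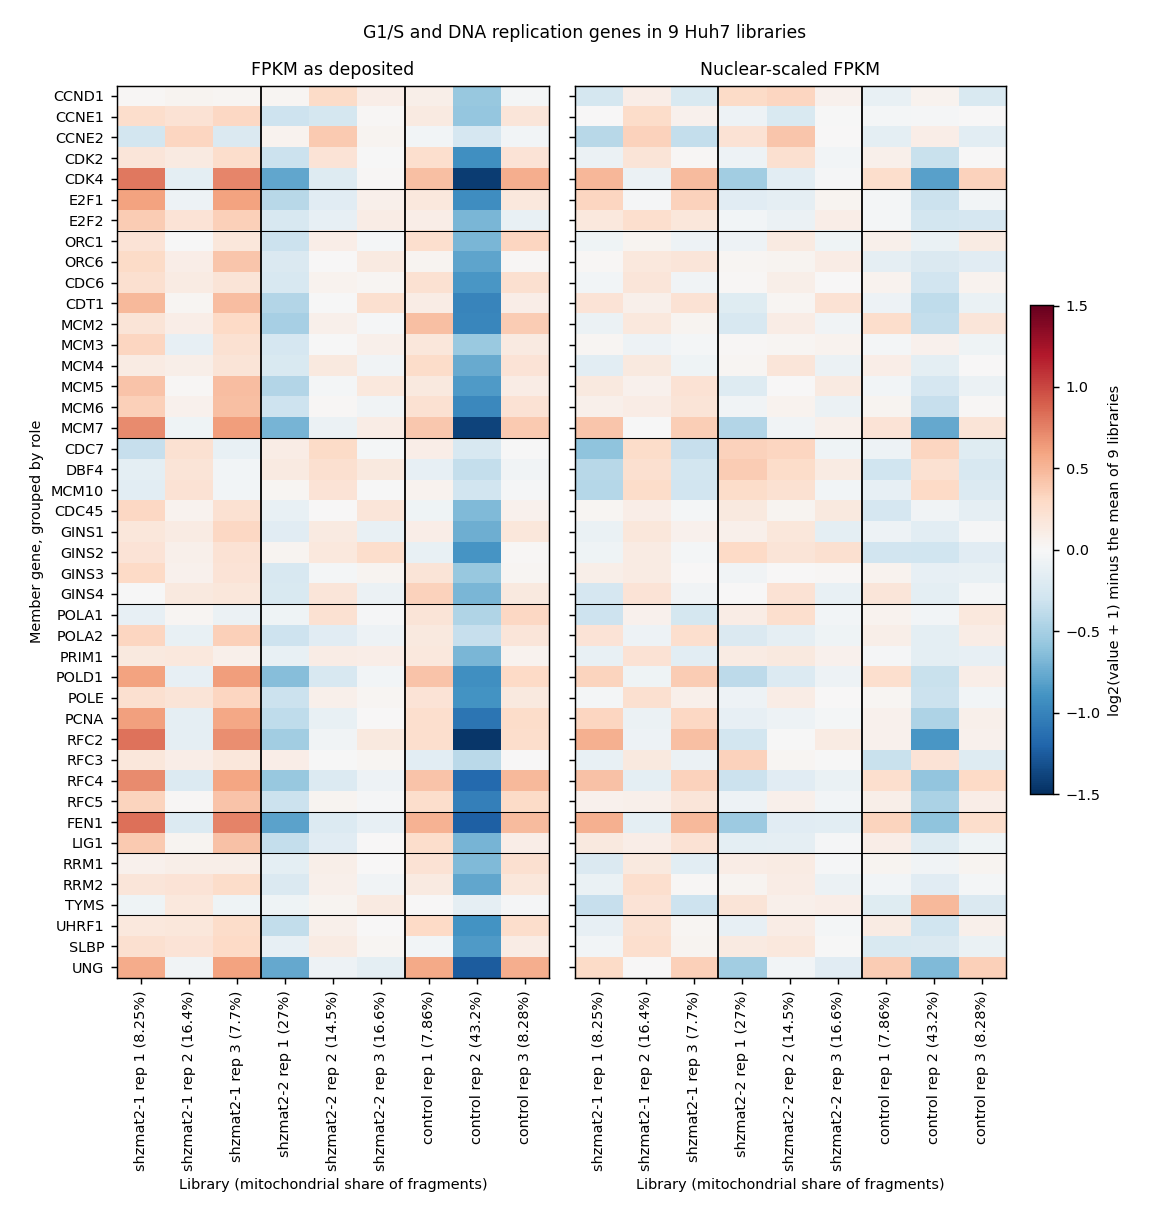
Each row is 1 of the 43 members and each column a library, with its mitochondrial share of fragments in brackets; colour gives log2(value + 1) minus that gene's mean over 9 libraries, for FPKM as deposited (left) and for FPKM scaled to the same nuclear total (right). On the left the column of control replicate 2, at 43.2% mitochondrial share, is the darkest blue for most genes, and on the right the contrast between columns is weaker.

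No member passed the test in any of 4 comparisons on the FPKM as deposited. A gene was tested when at least 3 libraries had 1 FPKM or more, which left 11245 genes and 42 of the 43 members, all but POLA2, and it was called at a limma adjusted p under 0.05 over all 11245. For both arms averaged and set against the control, 0 of 42 members were called, where 0.542% of all tested genes were, and 1 member, GINS2, had an unadjusted p under 0.05 (6.93% of all genes). The estimate was above 0 for 41 of the 42 and for 8073 of the 11245 genes. The median member difference was 0.22 on the log2(FPKM + 1) scale, against 0.10 over all tested genes. For shzmat2-1 against the control, 0 members were called (0.0800% of all genes) and 1, E2F2, had an unadjusted p under 0.05 (5.76% of all genes). Here 40 members had an estimate above 0, as had 8196 of the 11245 genes. The median difference was 0.36, against 0.16 over all genes. For shzmat2-2 against the control, 0 members were called (0.587% of all genes) and 0 had an unadjusted p under 0.05 (7.00% of all genes). Here 32 members had an estimate above 0, as had 6570 of the 11245 genes. The median was 0.07, against 0.05 over all genes. For shzmat2-2 against shzmat2-1, 0 members and 0% of all genes were called, 0 members had an unadjusted p under 0.05 (4.14% of all genes), and the median was -0.28, against -0.09 over all genes. These comparisons share libraries and are not independent of each other.

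Control replicate 2 decided the sign of the medians for the mean of both arms and for shzmat2-2, and most of the size of that for shzmat2-1. Without it, the median member difference was -0.10 for the mean of both arms, 0.02 for shzmat2-1 and -0.25 for shzmat2-2, and again 0 members were called (limma), where 1.33%, 0.293% and 2.40% of all genes were. At an unadjusted p under 0.05 there were 2, 1 and 9 of 42 members, against 16.0%, 8.94% and 29.5% of all genes. Single members moved likewise: without control replicate 2 the difference of GINS2 for the mean of both arms was 0.21, where it was 0.48 with all libraries, and in shzmat2-1 those of E2F2, ORC6 and SLBP were 0.32, 0.24 and 0.21. The mitochondrial share moved with the member level across libraries, and its part in these differences was not tested.

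Among the cyclins and kinases, which start the program, none of 5 passed the test. CCND1, cyclin D1 (ENSG00000110092, chromosome 11, 69641156 to 69654474), had 53.7, 54.8 and 54.3 FPKM in shzmat2-1, 54.1, 65.0 and 56.9 FPKM in shzmat2-2, and 56.3, 35.5 and 51.9 FPKM in the control. Control replicate 2 is the lowest library, and the other 2 control libraries overlap the arms or lie just below them. The mean difference of both arms was 0.26 ± 0.19 (SE; limma adjusted p = 0.999). CCNE1, cyclin E1 (ENSG00000105173, chromosome 19, 29811991 to 29824312), had 11.4, 11.0 and 11.8 FPKM in shzmat2-1, 7.33, 7.60 and 9.46 FPKM in shzmat2-2, and 10.3, 5.92 and 10.7 FPKM in the control. All shzmat2-1 libraries are above all shzmat2-2 and all control libraries, but the difference of shzmat2-2 from shzmat2-1 was -0.45 ± 0.22 (SE) on the log2 scale (limma adjusted p = 0.657). CCNE2, cyclin E2 (ENSG00000175305, chromosome 8, 94879770 to 94896678), was near the lower end of the list with 0.975, 1.98 and 1.06 FPKM in shzmat2-1, 1.48, 2.14 and 1.45 FPKM in shzmat2-2, and 1.33, 1.00 and 1.32 FPKM in the control. Its 2 highest libraries, shzmat2-2 replicate 2 and shzmat2-1 replicate 2, had 14.5% and 16.4% mitochondrial share, and the difference of shzmat2-2 from the control was 0.27 ± 0.18 (SE; limma adjusted p = 0.988). CDK4, the partner of cyclin D, spanned 4.85-fold, with 80.1 FPKM in shzmat2-1 replicate 1 and 16.5 FPKM in control replicate 2, whereas CDK2, the partner of cyclin E, spanned 2.43-fold.

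Both E2F factors listed had their highest levels in shzmat2-1 replicates 1 and 3. E2F1, an activator of S phase genes, had 58.5, 36.3 and 58.3 FPKM in shzmat2-1, 28.3, 33.9 and 40.1 FPKM in shzmat2-2, and 42.6, 19.5 and 42.8 FPKM in the control. E2F2, a second activator (ENSG00000007968, chromosome 1, 23506438 to 23531233), had 3.97, 3.40 and 3.92 FPKM in shzmat2-1, 2.25, 2.52 and 3.15 FPKM in shzmat2-2, and 3.10, 1.38 and 2.54 FPKM in the control. For E2F2 the 3 shzmat2-1 libraries do not overlap the control, with a difference of 0.55 ± 0.21 (SE; limma adjusted p = 0.718), while shzmat2-2 overlaps the control.

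The 10 origin licensing genes had positive estimates in shzmat2-1 in all cases and in shzmat2-2 in 7, and none was called. Of all 11245 tested genes, 8196 and 6570 had positive estimates in these comparisons. With scaling to the same nuclear total, 7 of the 10 were positive in each arm. ORC6, a subunit of the origin recognition complex (ENSG00000091651, chromosome 16, 46689643 to 46698394), had 16.1, 14.1 and 17.9 FPKM in shzmat2-1, 11.1, 13.1 and 14.5 FPKM in shzmat2-2, and 13.5, 7.12 and 13.3 FPKM in the control. The shzmat2-1 libraries are all above the control, with a difference of 0.51 ± 0.25 (SE; limma adjusted p = 0.805). The helicase subunits differed widely in level. MCM7 (ENSG00000166508, chromosome 7, 100092728 to 100101940) had 248.7, 145 and 236 FPKM in shzmat2-1, 93.5, 143 and 164 FPKM in shzmat2-2, and 201, 57.4 and 200.4 FPKM in the control, and its estimate in shzmat2-1 was 0.62 ± 0.48 (SE; limma adjusted p = 0.805). MCM3 (ENSG00000112118, chromosome 6, 52264014 to 52284881) had 127, 92.7 and 119 FPKM in shzmat2-1, 85.1, 101 and 107 FPKM in shzmat2-2, and 114, 68.3 and 111.5 FPKM in the control, with a mean difference of both arms of 0.13 ± 0.22 (SE; limma adjusted p = 0.999). For both subunits all 3 groups overlap.

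GINS2 was the member that separated most from the control. This subunit of the GINS complex of the active helicase (ENSG00000131153, chromosome 16, 85676198 to 85690073) had 17.8, 16.2 and 17.9 FPKM in shzmat2-1 and 15.8, 17.2 and 18.6 FPKM in shzmat2-2, against 14.1, 7.85 and 15.5 FPKM in the control. All 6 knockdown libraries are above all 3 control libraries, though the lowest of them is close to the highest control library. The mean difference of both arms was 0.48 ± 0.21 (SE) with the smallest unadjusted p of the list and a limma adjusted p of 0.673. The other firing factors include CDC45, a partner of GINS and MCM in the moving helicase, which had 34.8, 28.9 and 32.9 FPKM in shzmat2-1, 25.7, 28.0 and 31.7 FPKM in shzmat2-2, and 26.7, 17.3 and 29.3 FPKM in the control. Its groups overlap. GINS3 (ENSG00000181938, chromosome 16, 58295080 to 58406147) had a low level, with 4.08, 3.32 and 3.75 FPKM in shzmat2-1, 2.47, 3.03 and 3.22 FPKM in shzmat2-2, and 3.70, 1.77 and 3.21 FPKM in the control. The arms do not overlap each other, and the control overlaps both. The difference of shzmat2-2 from shzmat2-1 was -0.27 ± 0.21 (SE; limma adjusted p = 0.658). GINS1 and GINS4 had overlapping groups. The kinase CDC7 was the firing factor with a negative estimate in shzmat2-1, -0.03 ± 0.20 (SE; limma adjusted p = 0.961), which is far within its error.

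The polymerase and clamp genes ranged from the most to the least abundant of the list. PCNA, the sliding clamp (ENSG00000132646, chromosome 20, 5114953 to 5126626), had 269, 159.7 and 263 FPKM in shzmat2-1, 134, 162 and 177 FPKM in shzmat2-2, and 209.8, 82.0 and 213 FPKM in the control. In every group the library of highest mitochondrial share was the lowest, and the mean difference of both arms was 0.28 ± 0.33 (SE; limma adjusted p = 0.999). POLD1, the catalytic subunit of polymerase delta (ENSG00000062822, chromosome 19, 50384204 to 50418018), had 25.6, 15.0 and 26.0 FPKM in shzmat2-1, 10.2, 13.8 and 15.9 FPKM in shzmat2-2, and 22.6, 8.27 and 20.4 FPKM in the control, and the library of highest mitochondrial share was again the lowest of each group. The difference of shzmat2-2 from shzmat2-1 was -0.68 ± 0.37 (SE; limma adjusted p = 0.657). RFC3, a clamp loader subunit (ENSG00000133119, chromosome 13, 33818069 to 33966558), varied less, with 23.0, 21.8 and 22.9 FPKM in shzmat2-1, 21.8, 20.3 and 20.8 FPKM in shzmat2-2, and 18.1, 15.1 and 20.4 FPKM in the control. Its shzmat2-1 libraries are all above the control, and the mean difference of both arms was 0.28 ± 0.15 (SE; limma adjusted p = 0.889). POLA1, the catalytic subunit of polymerase alpha (ENSG00000101868, chromosome X, 24693873 to 24996986), had 1.96, 2.28 and 2.02 FPKM in shzmat2-1, 2.07, 2.77 and 2.18 FPKM in shzmat2-2, and 2.67, 1.36 and 2.98 FPKM in the control, and was the member with an estimate below 0 for the mean of both arms (-0.02 ± 0.18, SE; limma adjusted p = 0.999). POLA2, its accessory subunit (ENSG00000014138, chromosome 11, 65261913 to 65305959), had 1.06, 0.520 and 1.11 FPKM in shzmat2-1, 0.330, 0.463 and 0.568 FPKM in shzmat2-2, and 0.821, 0.299 and 0.870 FPKM in the control, and was not tested.

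The genes that finish Okazaki fragments, FEN1 and LIG1, had the lowest estimates of shzmat2-2 relative to shzmat2-1 as a role. FEN1, the flap nuclease, had 165, 80.6 and 157 FPKM in shzmat2-1, 53.0, 80.7 and 85.0 FPKM in shzmat2-2, and 134, 39.2 and 129 FPKM in the control, and its difference between the arms was -0.83 ± 0.48 (SE; limma adjusted p = 0.657). LIG1, the ligase (ENSG00000105486, chromosome 19, 48115445 to 48170603), had 7.03, 5.31 and 7.29 FPKM in shzmat2-1, 3.77, 4.43 and 5.16 FPKM in shzmat2-2, and 6.35, 2.79 and 5.55 FPKM in the control. The arms do not overlap for LIG1, with a difference of -0.47 ± 0.25 (SE; limma adjusted p = 0.657), and they do for FEN1 because shzmat2-1 replicate 2 sits among the shzmat2-2 libraries.

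None of the 3 genes of nucleotide supply was called. RRM2, the regulated subunit of ribonucleotide reductase (ENSG00000171848, chromosome 2, 10120698 to 10211725), had 31.7, 32.2 and 33.8 FPKM in shzmat2-1, 23.8, 29.5 and 26.8 FPKM in shzmat2-2, and 30.7, 15.8 and 31.4 FPKM in the control. Its shzmat2-1 libraries lie just above the 2 higher control libraries, with a difference of 0.37 ± 0.26 (SE; limma adjusted p = 0.805). TYMS, thymidylate synthase, had the smallest span of the 43 members in FPKM as deposited, with 32.7, 38.4 and 32.9 FPKM in shzmat2-1, 32.9, 35.3 and 37.9 FPKM in shzmat2-2, and 34.3, 31.2 and 33.8 FPKM in the control, a span of 1.23-fold over all libraries. Scaled to the same nuclear total, TYMS spanned 1.81-fold, 27.2 to 49.4, and MCM3 had the smallest span, 1.10-fold. SLBP, which binds replication-dependent histone mRNA (ENSG00000163950, chromosome 4, 1692731 to 1712344), had 79.5, 77.2 and 82.9 FPKM in shzmat2-1, 61.5, 73.1 and 68.7 FPKM in shzmat2-2, and 65.4, 36.9 and 72.3 FPKM in the control. The shzmat2-1 libraries are above the control, with a difference of 0.51 ± 0.26 (SE; limma adjusted p = 0.805). UNG, the uracil glycosylase (ENSG00000076248, chromosome 12, 109097597 to 109126725), had 32.1, 20.7 and 33.1 FPKM in shzmat2-1, 12.2, 20.2 and 19.3 FPKM in shzmat2-2, and 32.1, 8.47 and 31.8 FPKM in the control. The shzmat2-1 and control libraries of low mitochondrial share coincide for UNG, and the difference of shzmat2-2 from shzmat2-1 was -0.70 ± 0.45 (SE; limma adjusted p = 0.657). UHRF1, a maintenance factor of DNA methylation, had 26.5, 26.7 and 28.9 FPKM in shzmat2-1, 18.1, 25.1 and 23.7 FPKM in shzmat2-2, and 29.4, 12.3 and 28.7 FPKM in the control. The control overlaps both arms, and the arms do not overlap each other.

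**Figure D2:**
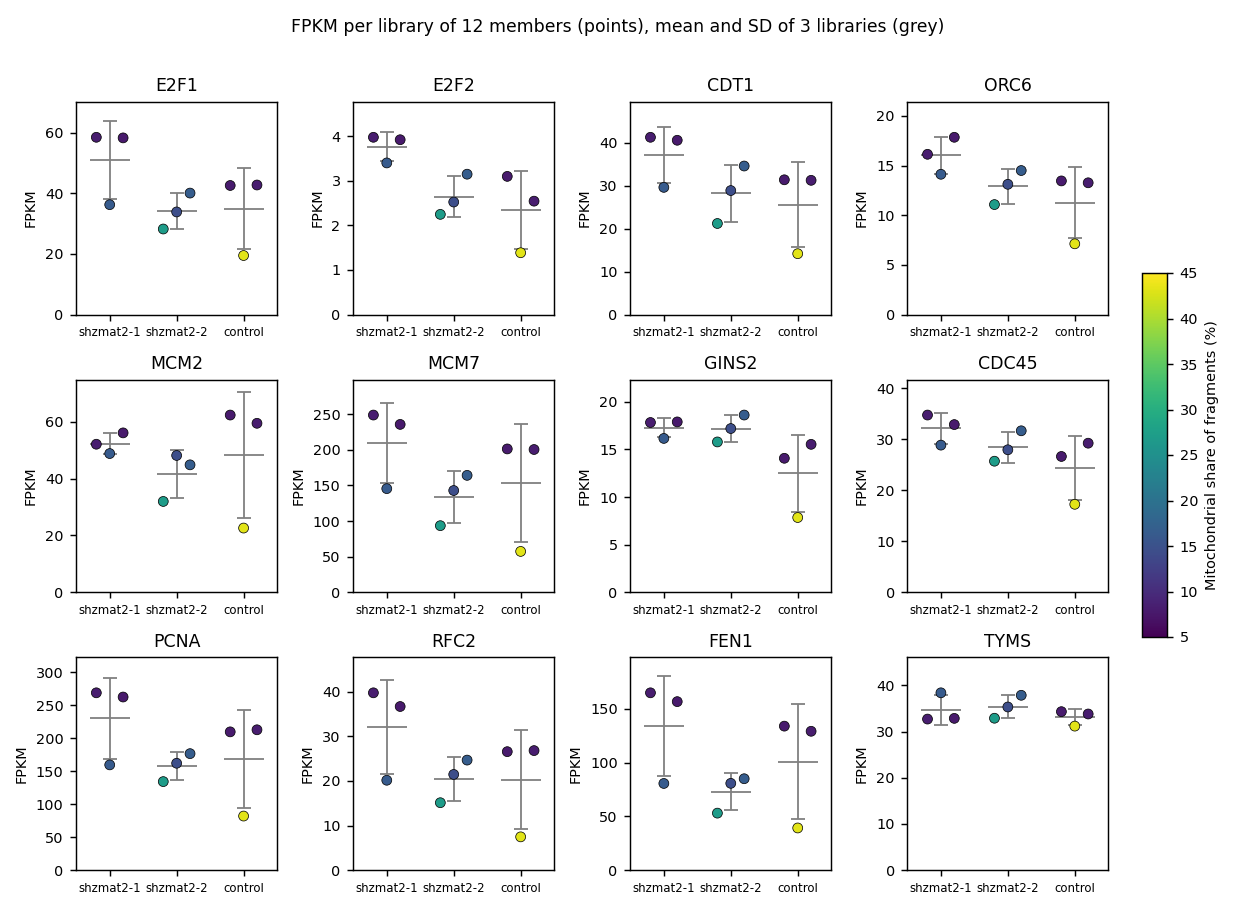
FPKM of 12 members, 1 panel each, with 3 libraries per group as points coloured by mitochondrial share of fragments, and the mean and SD of the group in grey. In every panel the lowest control point is replicate 2 (43.2% mitochondrial share), and GINS2 is the gene whose 6 knockdown libraries all lie above the control.

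Groups that do not overlap were counted in FPKM. Both arms were above the control for 1 of 42 members, GINS2, against 4.69% of all tested genes, and below it for 0 members (0.685% of all genes). The shzmat2-1 libraries were above the control for 7 members (CCNE1, E2F2, GINS2, ORC6, RFC3, RRM2 and SLBP), against 9.10% of all genes, and the shzmat2-2 libraries for 3 (CCNE2, DBF4 and GINS2), against 11.9%. The shzmat2-2 libraries were below the shzmat2-1 libraries for 12 members, against 9.28% of all genes. DBF4, the activating subunit of the CDC7 kinase, had 13.8, 14.9 and 13.9 FPKM in shzmat2-2, against 11.4, 9.48 and 11.9 FPKM in the control, a difference of 0.35 ± 0.17 (SE; limma adjusted p = 0.799).

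Scaling each library to the same total of nuclear FPKM, which removes the mitochondrial share from the total, gave a smaller SE in 37 of 42 members and left 0 members called. The SE was larger for CCNE2, CDC7, DBF4, MCM10 and TYMS. With this scaling the median difference of all genes was -0.03 on the log2 scale in shzmat2-1 against the control, where it was 0.16 in FPKM as deposited, and 0.11 in shzmat2-2 against shzmat2-1, where it was -0.09. The median member difference was then 0.11 for the mean of both arms (0.01 over all genes), 0.14 for shzmat2-1 (-0.03 over all genes) and 0.09 for shzmat2-2 (0.06 over all genes). Estimates were above 0 for 34, 30 and 32 of 42 members, and for 5814, 5076 and 6864 of the 11245 genes. In these comparisons 1.60%, 0.489% and 1.43% of all genes were called (limma). The counts at an unadjusted p under 0.05 were 6, 5 and 3 of 42 members, against 10.1%, 8.71% and 11.3% of all genes, and 2 between the arms, against 10.2%. GINS2 had the smallest adjusted p in shzmat2-2, with a difference of 0.50 ± 0.11 (SE; limma adjusted p = 0.0652), and E2F2 had 0.38 ± 0.11 in shzmat2-1 (SE; limma adjusted p = 0.272). On this scale both arms were above the control for 4 members, CDC45, GINS2, ORC6 and SLBP, against 4.56% of all genes. The shzmat2-1 libraries were above the control for 9 members (7.64% of all genes), a list that gained CDC45, CDT1, E2F1, MCM5 and MCM6 and lost CCNE1, RFC3 and RRM2. The shzmat2-2 libraries were above the control for 6, CCND1, CDC45, GINS2, ORC6, PRIM1 and SLBP (12.6% of all genes), without CCNE2 and DBF4. Against shzmat2-1, the shzmat2-2 libraries were above for 1 member, GINS2 (10.5% of all genes), and below for 7 (6.68%), where 12 were below in FPKM as deposited.

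**Figure D3:**
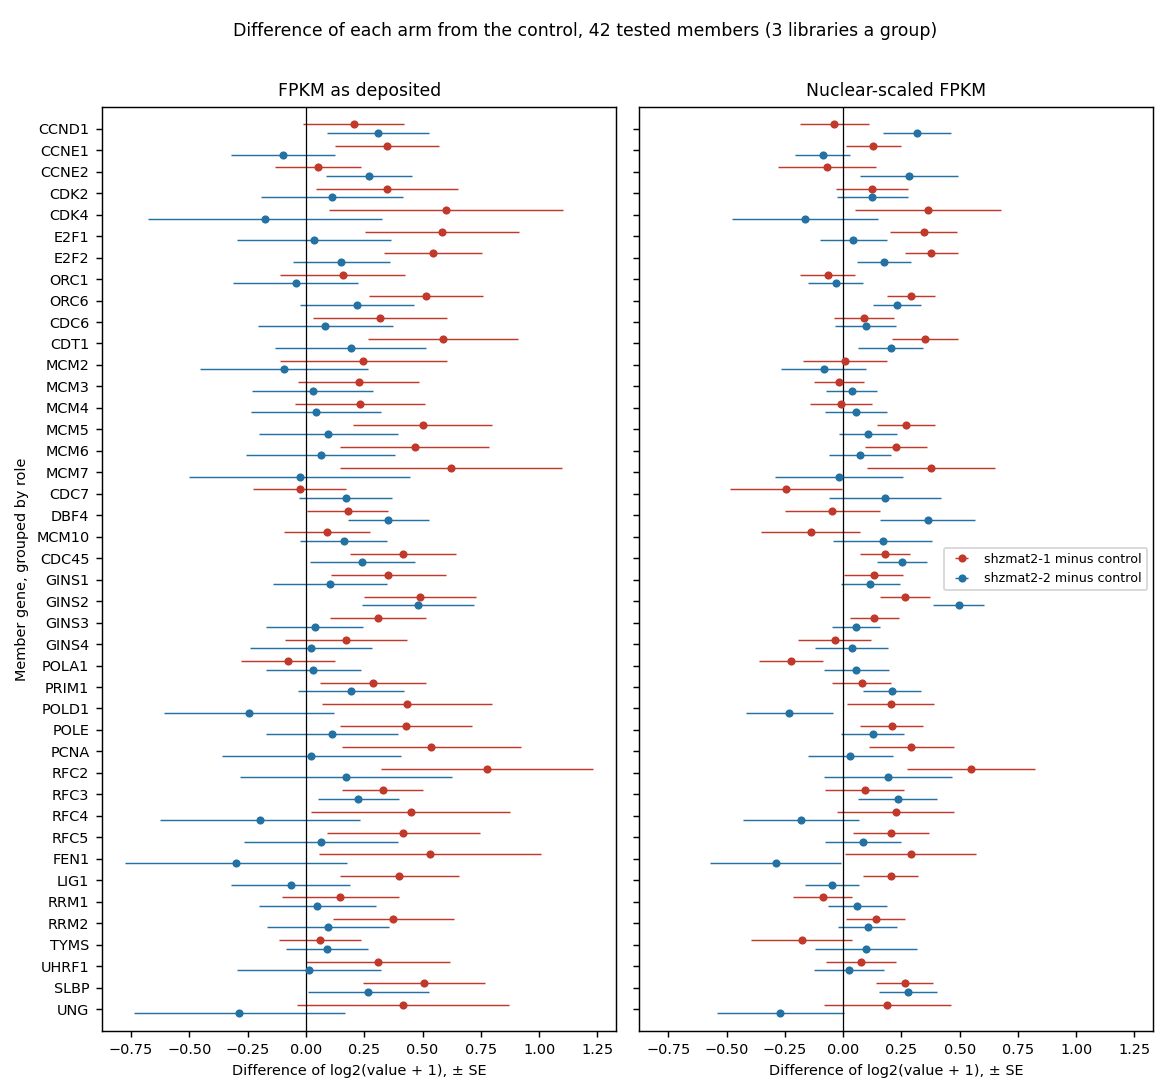
Differences of log2(value + 1) from the control for the 42 tested members, with SE, for shzmat2-1 in red and shzmat2-2 in blue, on FPKM as deposited (left) and nuclear-scaled FPKM (right). Most red points are right of 0 on the left panel, where their median is 0.36, and closer to 0 on the right panel, where it is 0.14.

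Libraries of one group differed in a recurrent way, in these genes and over all tested genes. In the control, replicate 2 over the mean of replicates 1 and 3 gave a median FPKM ratio of 0.483 over the 43 members, against 0.566 over all tested genes. The ratio was lowest for CDK4 (0.252), UNG (0.265), RFC2 (0.279), MCM7 (0.286), RFC4 (0.294) and FEN1 (0.298), and highest for TYMS (0.915), DBF4 (0.813), CDC7 (0.795), MCM10 (0.793), RFC3 (0.784) and CCNE2 (0.758). Within shzmat2-1, replicate 2, at 16.4% mitochondrial share, over the other 2 gave a median of 0.902 (0.934 over all genes), with FEN1 at 0.501, RFC2 and CDK4 at 0.527, CDC7 at 1.41 and CCNE2 at 1.94. Within shzmat2-2, replicate 1, at 27.0%, over the other 2 gave a median of 0.796 (0.841 over all genes), with CDK4 at 0.608 and RFC3 at 1.06. Over the 43 members, the log2 ratio in the control had a Pearson r of 0.81 with that in shzmat2-1 and of 0.88 with that in shzmat2-2. The arms had one of 0.74 with each other, and the control ratio had one of 0.09 with log2 exon length. Over all tested genes, the deviations of these high-share libraries from their group means had a Pearson r of 0.78, 0.81 and 0.68 in the same order of pairs. The values are descriptions of genes measured in the same libraries.

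**Figure D4:**
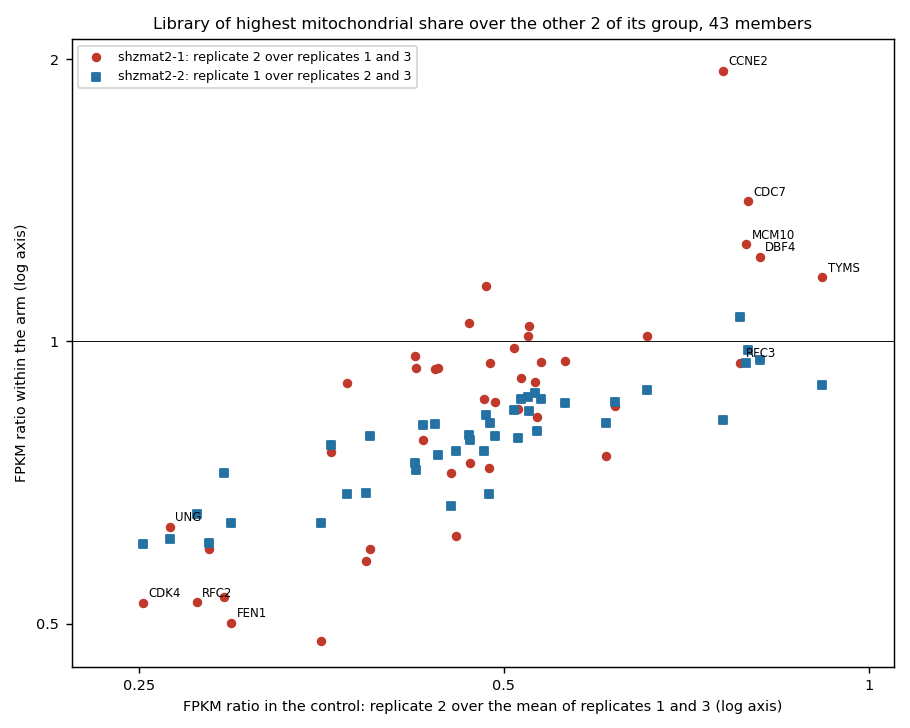
For each of the 43 members, the FPKM ratio of the library of highest mitochondrial share to the mean of the other 2, in the control (x axis) and within each arm (y axis), on log axes. CDK4, RFC2 and FEN1 are low in all groups and TYMS, DBF4 and CDC7 are high, and the points run from lower left to upper right.

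Because the mitochondrial share varied, the groups were also compared within libraries of like share, a choice made after seeing the data. Under 10% mitochondrial share there were 2 shzmat2-1 libraries (replicates 1 and 3), 2 control libraries (replicates 1 and 3) and 0 shzmat2-2 libraries, so shzmat2-2 has no such comparison. Here 18 of 42 members were higher in shzmat2-1, 4 were lower and 20 did not pass (limma adjusted p under 0.05). Of all tested genes, 19.3% were called higher and 18.2% lower, beside 42.9% and 9.52% of the members. With nuclear scaling the counts were 11 higher and 5 lower (13.4% and 24.5% of all genes), and with median-of-ratios scaling 19 higher and 1 lower (23.7% and 13.9%).

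The members that were higher came from several roles. E2F1 had 58.5 and 58.3 FPKM in the 2 shzmat2-1 libraries, against 42.6 and 42.8 FPKM in the 2 control libraries, a difference of 0.44 ± 0.05 (SE; limma adjusted p = 0.000681). E2F2 was higher by 0.38 ± 0.09 (limma adjusted p = 0.0155). In licensing, CDT1 had 41.2 and 40.5 FPKM in shzmat2-1, against 31.3 and 31.2 FPKM in the control (0.38 ± 0.05; limma adjusted p = 0.00145), and ORC6, MCM5, MCM6 and MCM7 were also higher, by 0.18 to 0.32. MCM2 was lower in shzmat2-1, with 52.1 and 56.1 FPKM against 62.4 and 59.5 FPKM in the control (-0.17 ± 0.06; limma adjusted p = 0.0479). This call is close to the threshold and was lost with median-of-ratios scaling. In firing, CDC45 and GINS2 were higher, by 0.27 ± 0.06 and 0.26 ± 0.06, and CDC7 was lower, with 6.69 and 8.08 FPKM in shzmat2-1 against 9.48 and 8.77 FPKM in the control (-0.28 ± 0.09; limma adjusted p = 0.0423). At the fork, PCNA had 269 and 263 FPKM in shzmat2-1, against 209.8 and 213 FPKM in the control (0.33 ± 0.05; limma adjusted p = 0.00208). Its loader subunit RFC2 had the largest difference among the 42 members, 0.50 ± 0.06 (limma adjusted p = 0.000814), with 39.8 and 36.7 FPKM in shzmat2-1 against 26.6 and 26.8 FPKM in the control. RFC3, RFC4, POLD1, FEN1, LIG1, CDK4 and SLBP were higher too, by 0.19 to 0.29. Of the members called higher, GINS2, LIG1, MCM6, POLD1, RFC3, RFC4 and SLBP did not pass with nuclear scaling. The other 11 passed with all 3 scalings. POLA1 had the largest difference downward, -0.35 ± 0.09 (limma adjusted p = 0.0168). RRM1, the large subunit of ribonucleotide reductase, was lower by a smaller amount, -0.16 ± 0.05 (limma adjusted p = 0.0474). As for MCM2, the calls of CDC7 and RRM1 were lost with median-of-ratios scaling, and only that of POLA1 held.

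These 4-library values rest on 2 libraries a group. Leaving out each of the 4 in turn, where the lone library is assumed to vary like the other group, called 9 to 15 members as higher (11.0% to 18.9% of all genes) and 0 to 3 as lower (8.55% to 20.8%). CDT1, E2F1, FEN1, MCM5, ORC6, PCNA and RFC2 passed in all 7 settings tried, and 0 of the members that were lower did, POLA1 being lost without control replicate 3 and without shzmat2-1 replicate 1. The cyclins CCND1 and CCNE1, CDK2, CDC6 and TYMS were among the 20 that did not pass. CCND1 had a difference of 0.00 ± 0.06 (SE) and 99.9% of the control level.

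**Figure D5:**
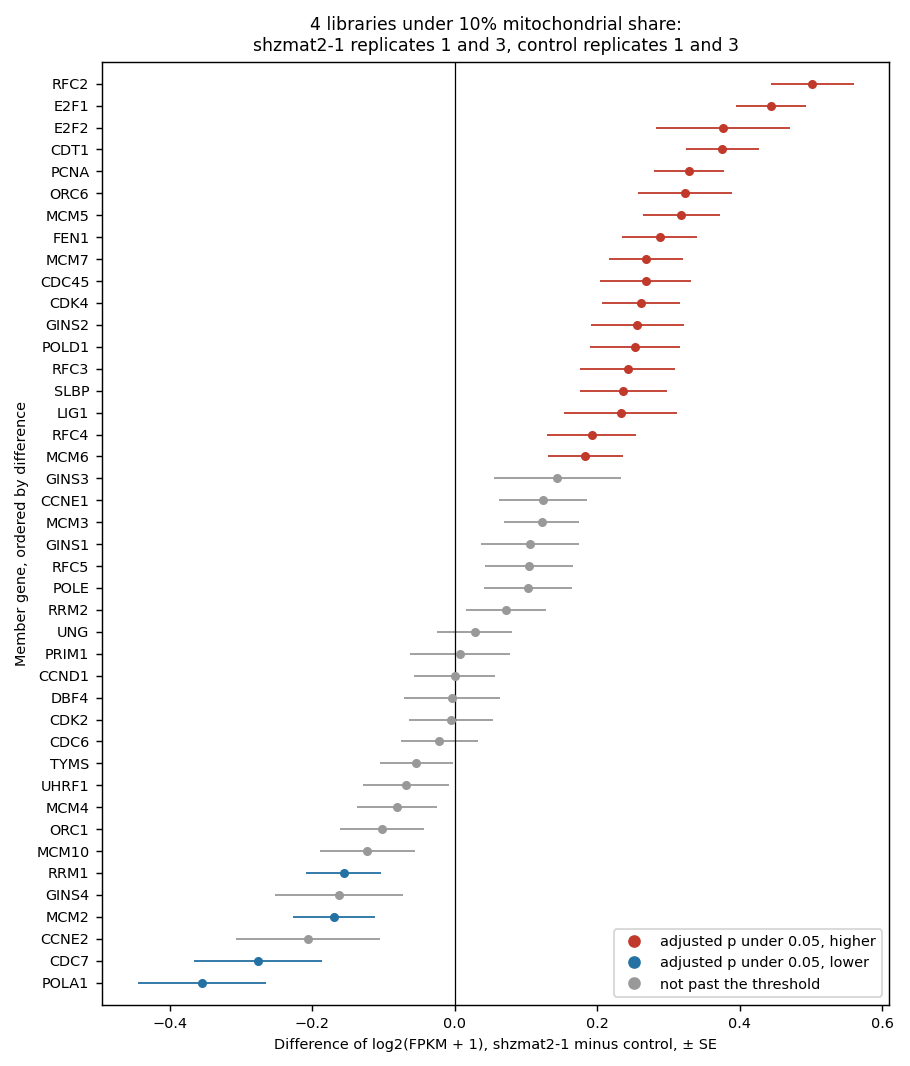
Differences of log2(FPKM + 1), shzmat2-1 minus control, with SE, for the 42 tested members in the 4 libraries under 10% mitochondrial share, ordered by size. RFC2 at 0.50 and E2F1 at 0.44 are highest and POLA1 at -0.35 is lowest; red marks the 18 members called higher, blue the 4 called lower and grey the 20 not called.

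At 14.5% to 16.6% mitochondrial share, 2 shzmat2-2 libraries (replicates 2 and 3) stand beside 1 shzmat2-1 library (replicate 2) and no control library. The shzmat2-1 library lay between the 2 shzmat2-2 libraries for 19 of the 43 members, above both for 17 and below both for 7, and the shares of all tested genes were 40.7% between, 22.8% above and 36.5% below. The median log2 ratio of shzmat2-2 to shzmat2-1 was -0.04 (0.03 over all genes), and 41 of 43 members were within 0.25 of 0, as were 74.9% of all tested genes. With 1 library on one side there is no test.

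Other ways of handling the mitochondrial share gave other calls. With the log2 mitochondrial level as a covariate over all 9 libraries, 7 members were higher in the mean of both arms (CDC45, CDT1, E2F2, GINS2, ORC6, RFC2 and SLBP), against 7.94% of all genes, and 4 were higher in shzmat2-2 (CCND1, GINS2, RFC2 and SLBP), against 8.38%. In the same fit 0 members were called in shzmat2-1 (3.73% of all genes) and 0 between the arms (0% of all genes). Among the 7, GINS2 had the largest difference, 0.47 ± 0.09 (SE; limma adjusted p = 0.00944) for the mean of both arms. With replicate 2 of both the control and shzmat2-1 left out, which leaves all shzmat2-2 libraries at a higher share than every other library, 7 members were lower in shzmat2-2 than in the control (CDK4, FEN1, MCM2, MCM7, POLD1, RFC4 and UNG), against 23.5% of all genes. Set against shzmat2-1, 17 members were lower in shzmat2-2 (29.1% of all genes) and 1, CCNE2, was higher (13.2%). In that setting the mitochondrial share and the knockdown cannot be told apart. The 7 members lower than in the control had ratios in control replicate 2 of 0.252 to 0.385, under the members' median of 0.483.

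Members with the E2F letters had medians close to those of members without them, which was not tested. The median difference for the mean of both arms was 0.21 for the 20 tested members with the letters and 0.22 for the 16 without, and in the 4 low-share libraries it was 0.13 and 0.16. PCNA and E2F1, printed above with the letters, were higher there, and so was CDK4, printed without them.

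Of 72 other genes of the G1/S and replication pathway, 68 were tested and 0 were called in any of the 4 comparisons on FPKM. At a limma unadjusted p under 0.05 there were 2, 2, 2 and 1 (mean of both arms, shzmat2-1, shzmat2-2, and shzmat2-2 against shzmat2-1). In the same order, 0.542%, 0.0800%, 0.587% and 0% of all tested genes were called, and 6.93%, 5.76%, 7.00% and 4.14% had such an unadjusted p. The 4 with the smallest p for the mean of both arms were CCND3, MYBL2, E2F8 and CDK6. MYBL2, a transcription factor of cycling cells, had 168, 157 and 156 FPKM in shzmat2-1 and 154, 152 and 175 FPKM in shzmat2-2. In the control it had 126, 112 and 123 FPKM. Both arms were above the control for MYBL2, as for 4.69% of all tested genes, but not with nuclear scaling. Its mean difference was 0.41 ± 0.17 (SE; limma adjusted p = 0.631). CCND3, cyclin D3, had a mean difference of 0.49 ± 0.18 (limma adjusted p = 0.536; 0.27 without control replicate 2), E2F8, a repressor of the E2F family, 0.41 ± 0.19 (limma adjusted p = 0.738), and CDK6 0.33 ± 0.17 (limma adjusted p = 0.832). In the 4 low-share libraries, 13 of the 68 were higher in shzmat2-1 and 15 lower, beside 19.3% and 18.2% of all genes. The balance turned with the scaling, as it did over all genes. With nuclear scaling 8 were higher and 22 lower, beside 13.4% and 24.5% of all genes. With median-of-ratios scaling 15 were higher and 9 lower, beside 23.7% and 13.9%. TK1 and CDKN1A are named here after their values were seen and do not stand for their kinds of gene. Of 11 other nucleotide and S phase genes tested, 3 were called higher in these libraries and 2 lower, with a median difference of -0.14. Of 9 CDK inhibitors and pocket proteins tested, 1 was called higher and 3 lower, with a median of -0.10. TK1, thymidine kinase, had 124 and 103 FPKM in the 2 shzmat2-1 libraries, against 72.4 and 70.3 FPKM in the 2 control libraries, a difference of 0.65 ± 0.08 (SE; limma adjusted p = 0.00114). CDKN1A, a CDK inhibitor, had 3.40 and 3.63 FPKM in shzmat2-1, against 4.71 and 4.16 FPKM in the control, a difference of -0.27 ± 0.09 (SE; limma adjusted p = 0.0390).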

How the data were processed

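Poly(A) RNA of 9 Huh7 libraries, 3 in each of 3 groups, was sequenced after strand-specific preparation, per the labels' protocols. The authors deposited FPKM, one value per gene and library, and the submitters' processing notes name HISAT, featureCounts and DESeq2 with no version. Build and annotation are not given in the sources used here. Depth was recovered from single-exon genes: of 760 to 889 deposited FPKM values per library among 1529 such genes, 100% were whole fragments within 0.1. At that depth a 1 kb transcript with 3 fragments has 0.126 to 0.163 FPKM.

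Genes with at least 1 FPKM in 3 libraries were tested with limma 3.58.1 (R 4.3.3) on log2(FPKM + 1), with a trend and only the group as a term, over all 9 libraries. This scale understates the differences of low genes. Adjusted p-values are Benjamini-Hochberg over 11245 genes, two-sided, with a threshold of 0.05, and the fit was tested on simulated data in which 200 genes were changed. The comparisons were each arm, and their mean, against the control, and the arms against each other. Nuclear scaling sets the FPKM total outside 13 mitochondrially encoded genes equal between libraries. The members and gene lists were chosen with earlier results of these data known. Values in every library, with 1 difference where tested, are given for the member with the smallest unadjusted p per role in either of 2 contrasts (the mean of both arms, and the arms) and for the 3 highest and 3 lowest levels, and other members are named where a comparison turns on them. The other pathway genes named are the 4 with the smallest p unless stated. Promoters are from RefSeq GRCh38.p14, and exon lengths from GENCODE 29. Alternatives included another pseudocount (0.1), filters, scalings, a replicate block, a mitochondrial covariate and leaving out libraries. Other steps used Python 3.11.15 with pandas 2.3.3, numpy 2.4.6, matplotlib 3.10.9 and scipy 1.17.1.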

Additional observations from a re-analysis of the deposited data

How the results depend on the processing

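On all 9 libraries, 0 members were called in each of the 4 comparisons with another pseudocount, no filter or a stricter one, TPM, median-of-ratios or nuclear scaling, no trend, and each library left out in turn, and in the 3 comparisons of single groups with a fit on only the groups compared (limma). An exception was the mitochondrial covariate, with 7 members higher for the mean of both arms (7.94% of all genes) and 4 for shzmat2-2 (8.38%). A further exception was nuclear scaling without shzmat2-1 replicate 2, with 1 member (GINS2) higher in shzmat2-2, as were 204 of all 11245 genes. Without control replicate 2 and shzmat2-1 replicate 2 together, 7 members were lower in shzmat2-2 than in the control (23.5% of all genes). Against shzmat2-1, 17 were lower in shzmat2-2 (29.1%) and 1 was higher (13.2%). In the 4 libraries under 10% mitochondrial share, shzmat2-1 against the control gave 22 called members, 16 with nuclear scaling and 20 with median-of-ratios scaling, and, with 1 more library left out, 10 (control replicate 1), 12 (control replicate 3), 12 (shzmat2-1 replicate 1) and 18 (shzmat2-1 replicate 3). The causes of these changes were not tested.

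The median member difference for shzmat2-1 was 0.022 to 0.52 with each library left out, lowest without control replicate 2. For the mean of both arms it was -0.10 to 0.38 and for shzmat2-2 -0.25 to 0.24, each lowest without the same library. With nuclear scaling these ranges were 0.05 to 0.17, 0.05 to 0.15 and 0.01 to 0.12. In TPM the median difference of all genes was 0.37 in shzmat2-1 and -0.31 in shzmat2-2 against shzmat2-1, and that of the members 0.59 and -0.52.

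Whether the replicate numbers pair the libraries could not be told. Deviations of same-numbered libraries correlated from -0.76 to 0.78. The values were 0.61, 0.78 and 0.69 between the control and shzmat2-1, and -0.76, -0.22 and 0.61 between the control and shzmat2-2. Control replicate 2 and shzmat2-2 replicate 1, of different number and each of the highest mitochondrial share in its group, correlated at 0.81. With the replicate block, 0 members were called in all 4 comparisons and the median differences were 0.22, 0.36, 0.07 and -0.28 for the mean of both arms, shzmat2-1, shzmat2-2 and the arms.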

Other observations

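The genes outside the pathway lists whose nuclear-scaled level followed the mean of the members most closely over the 9 libraries were OTUD3 (Pearson r = 0.99), MSRB3 (0.98), CADPS2 (0.97), TSN (0.97) and SLC17A5 (0.97), of 10151 protein-coding genes compared. These correlations are over libraries that differ in mitochondrial share and are given as descriptions.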
